A study of Homo sapiens with 12 samples.

Results

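The data compared here are the responses of A549 cells to loss of attachment in the absence and in the presence of GFI1. A549, a widely used human cell line, derives from a lung adenocarcinoma and is adherent in culture. GFI1 is a zinc-finger transcriptional repressor of blood cell development that A549 cells barely express. Control A549 cells and A549 cells expressing GFI1 from a lentivirus with a PGK promoter and a GFP reporter were grown in RPMI1640 with 10% FBS and collected attached, or floating after suspension was forced for 48 hours. Per the study's methods, infected cells were sorted for GFP before RNA-Seq, and an empty vector is named for control A549 cells in animal assays. What the RNA-Seq control cells carried is not stated, so whether transduction is part of the GFI1 effects is not known. The 4 groups (attached control, attached GFI1-expressing, floating control and floating GFI1-expressing) had 3 libraries each, and nothing states that the 3 came from separate cultures, so p values measure the spread between these samples, which may be technical.

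All 12 libraries were fitted together, and the interaction was calculated for each gene as the difference between the GFI1 effect in floating cells and the GFI1 effect in attached cells on the log2 scale. It equals the suspension effect in GFI1-expressing cells minus the suspension effect in control cells. A positive interaction therefore means that suspension raised a gene more, or lowered it less, when GFI1 was expressed. Of the 17829 genes that could be tested, 1919 passed the interaction test of edgeR (quasi-likelihood, p adjusted by Benjamini-Hochberg over all tested genes, threshold 0.05), which is 10.8% of the genes tested. These genes are referred to as called.

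Epithelial cells that lose contact with the extracellular matrix lose integrin signaling, reorganize their actin cytoskeleton and can die by anoikis, a form of apoptosis driven by BH3-only proteins of the BCL2 family. Cells in suspension also aggregate, and limited oxygen within aggregates activates hypoxia-inducible factors, which switch on genes of glycolysis, pH control and angiogenesis. An interaction in these gene groups shows where GFI1 expression goes together with a different transcriptional response to detachment.

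Total counts ran from 17014188 to 20748677 per library. The floating GFI1-expressing libraries differed more among themselves than the other groups did. The chi-square per gene was 11.4 between their replicates 2 and 3, against 1.99 to 4.84 for the other 11 pairs of replicates. The fit used a single estimate of spread per gene, shared by all groups. For genes that varied mainly among floating GFI1-expressing libraries, the errors and p values may therefore be too small. GFI1 itself was at 0.238 to 0.711 CPM (counts scaled to the size and composition of the library) in the 6 control libraries and at 286 to 294 CPM in the attached GFI1-expressing libraries. In the floating GFI1-expressing libraries it was at 545, 706 and 430.2 CPM in replicates 1, 2 and 3. The mean log2 CPM of 29 hypoxia genes followed the same order, at 6.40, 6.78 and 6.06, while it was 6.26 to 6.35 in floating control libraries. The part of these differences in the results was not tested. Of markers of other cell types, PTPRC and CD3E (leukocytes), KDR (endothelium) and COL1A2, DCN and LUM (fibroblasts) had at most 3 counts in any library, while CD14 had 73 to 229, COL1A1 53 to 256, CDH5 1 to 89 and PDGFRB 1 to 66. The summed level of 6 endothelial markers was 0.217 to 0.843 CPM in control and 3.65 to 5.62 CPM in GFI1-expressing libraries, that of 8 leukocyte markers was 4.85 to 14.7 CPM and that of 7 fibroblast markers 7.89 to 15.6 CPM over all libraries, and 0 of the 8 tested members of these 3 marker lists were called by edgeR, DESeq2 or limma-voom, with 5 at an unadjusted p under 0.05. Of 12 markers of A549 lung epithelium, the keratins KRT7, KRT8 and KRT18 had at least 8281 counts in every library. ALDH1A1, AKR1C1 and AKR1B10 had at least 7186. CDH1 had 66 to 2186, NAPSA 32 to 68, EPCAM 6 to 45 and NKX2-1 2 to 36, and the alveolar markers SFTPB and SFTPC had at most 14. The summed level of the 12 was 19500 to 23400 CPM in control and 6900 to 9300 CPM in GFI1-expressing libraries.

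Interactions of both signs were called, and their balance depended on the filter. Of the 1919 called genes, 848 had a higher response to suspension in GFI1-expressing cells (4.76% of genes tested) and 1071 had a lower one (6.01%). Counts of called members in the gene lists below are to be read beside these shares. With no low-count filter, 978 were higher and 963 lower. An unadjusted p under 0.05 was reached by 4055 genes. The median absolute interaction of the called genes was 0.42 log2 units, and 241 of them reached 1 log2 unit, of which 95 were higher and 146 lower. When each of the 12 libraries was left out in turn, 1116 of the called genes were called with the same sign in every fit (486 higher and 630 lower). Of 13733 protein-coding genes, 13.2% were called, and of 2539 long noncoding RNAs, 2.72%. Neither GFI1 itself nor the effector that the study names was called. The interaction was 0.56 ± 0.73 (SE) for GFI1 (adjusted p = 0.718) and -0.23 ± 0.32 for RASGRP2, an exchange factor for Rap1 (adjusted p = 0.735), both by edgeR. The value of RASGRP2 was 0.11 without floating control replicate 1. Control libraries held only 4 to 12 counts of GFI1 and 8 to 27 of RASGRP2, so these interactions have large errors. Within GFI1-expressing cells, the suspension effect by edgeR was 0.95 for GFI1 (adjusted p = 2.38e-08) and -0.48 for RASGRP2 (adjusted p = 0.000855).

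To describe the interaction, called genes were grouped by their 2 suspension effects. Of all tested genes, 40.1% passed the test for suspension in control cells (19.6% rose and 20.5% fell) and 31.3% in GFI1-expressing cells (15% rose and 16.3% fell). In the largest group, 838 genes (43.7% of the called genes), the response was masked: it was called in control cells and not called in GFI1-expressing cells. The 471 of them that rose in control cells had a median suspension effect of 0.45 log2 units there and of -0.01 with GFI1. The 367 that fell had medians of -0.36 and 0.01. A further 472 genes were sub-additive, with a suspension effect called in both cell types, of the same sign and smaller with GFI1. Their medians were 0.85 in control cells and 0.33 with GFI1 for the 273 genes that rose, and -0.67 and -0.32 for the 199 that fell. The response was larger with GFI1 in 116 super-additive genes, was gained (called in GFI1-expressing cells only) in 313, and had opposite signs in 155. The other 25 had neither suspension effect called. Masked was the largest group only by these calls: when groups were set by the ratio of the 2 effects alone, 576 genes were masked and 598 had opposite signs. Because these groups were formed from the fit that tested the interaction, no test was run between them.

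**Figure D1:**
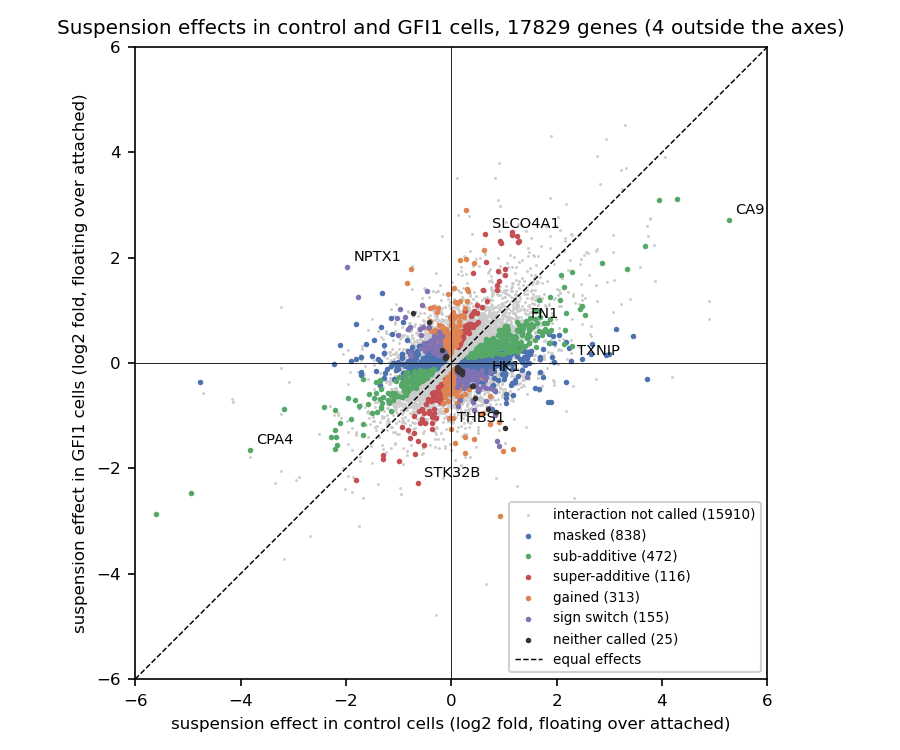
Suspension effect of each of the 17829 tested genes in control cells (x axis) and in GFI1-expressing cells (y axis), both in log2 fold change of floating over attached, with called genes coloured by response group and 4 genes outside the axes. The 838 masked genes lie along the horizontal axis, the 472 sub-additive genes lie between that axis and the dashed line of equal effects, and NPTX1, with opposite signs, lies at the upper left.

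The 2 suspension effects come from separate libraries. Across the 17829 genes their Pearson correlation was 0.544 and their Spearman correlation 0.530, and Pearson's r was 0.710 across the 13248 genes whose mean log2 CPM was 1 or more. These are descriptions across genes, which are not independent replicates. Among the 660 genes that rose at least 2-fold with suspension in control cells, the median effect was 1.38 log2 units there and 0.67 in GFI1-expressing cells. Of these, 201 were called for the interaction, 194 of them with a smaller or opposite response and 7 with a larger one. Among the 249 genes that fell at least 2-fold in control cells, the medians were -1.35 and -0.71, and 87 of the 90 called genes had a smaller or opposite response with GFI1. Choosing genes on one cell type favours a larger effect in that type. For the 500 genes chosen by a 2-fold effect in GFI1-expressing cells, the median ratio of the effect with GFI1 to that in control cells was 1.19, against 0.479 for the 909 genes chosen in control cells. Over the 1158 genes with a 2-fold effect in either cell type, the effect was larger in control cells for 798 (68.9%).

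The same 1919 genes were also grouped by the 2 GFI1 effects, in attached and in floating cells. Of all tested genes, 62.3% passed the test for GFI1 in attached cells (29.5% higher and 32.8% lower) and 60.4% in floating cells (29.3% higher and 31.1% lower). Among the 1919, the GFI1 effect was called in attached cells only in 363 genes and in floating cells only in 300. It was called in both states with the same sign in 603 genes where it was smaller in floating cells and in 548 where it was larger. It had opposite signs in 105 genes. On the linear CPM scale, the interaction had the same sign as on the log2 scale for 1802 of the called genes (93.9%) and the opposite sign for 117. Those 117 include CA9, CPA4, TCN1, RET, LGALS9B, STK32B, ITGA10, SLC16A3, IFITM1, CXCL5 and IL11 below.

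Leading genes were named by a rule that required expression in all 4 groups and a call with any 1 library left out. For each list, up to 2 called members in each direction were named by lowest adjusted p, without these requirements. Genes cited beyond these were chosen after their values were seen. The highest interaction under the first rule was that of NPTX1, which encodes a secreted neuronal pentraxin. NPTX1 (ENSG00000171246, chromosome 17, 80466834 to 80477843, minus strand) was at 21.4, 22.3 and 23.0 CPM in attached and at 6.34, 5.06 and 5.61 CPM in floating control cells. In GFI1-expressing cells it was at 186, 189 and 187 CPM attached and at 661, 1027 and 309 CPM floating. The floating and attached libraries did not overlap in either cell type, but the order was opposite. The interaction was 3.80 ± 0.44 (adjusted p = 1.24e-06), from a suspension effect of -1.97 without GFI1 and of 1.83 with it. Suspension effects of opposite sign were also found for DMBX1, a homeobox factor (1.83 ± 0.21, adjusted p = 1.28e-06), and for NKD2, a WNT pathway inhibitor that binds Dishevelled (1.67 ± 0.21, adjusted p = 5.69e-06). All 3 were highest in replicate 2 among the floating GFI1-expressing libraries.

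TXNIP, an inhibitor of thioredoxin and of glucose uptake, showed the largest masked response among the genes named by rule. It was at 1.49, 1.68 and 1.55 CPM in attached and at 7.47, 6.32 and 9.12 CPM in floating control cells. In GFI1-expressing cells, it was at 7.61, 6.51 and 7.11 CPM attached and at 7.28, 6.12 and 8.31 CPM floating. GFI1-expressing cells thus had the floating control level in both states (interaction -2.23 ± 0.23, adjusted p = 2.57e-07). TRIM31, an E3 ubiquitin ligase, was also masked (-1.93 ± 0.31, adjusted p = 0.000108), but it was higher with GFI1 in floating cells too (6.47 to 7.45 CPM against 1.76 to 2.23 CPM). In the opposite direction, RFTN1, a lipid raft protein, fell from 8.22, 8.09 and 9.18 to 3.14, 2.41 and 2.27 CPM in control cells and was at 1.75 to 2.87 CPM in the 6 GFI1-expressing libraries (1.83 ± 0.27, adjusted p = 3.45e-05). PRICKLE1, a planar cell polarity protein, showed this pattern too (1.94 ± 0.32, adjusted p = 0.000136). RAB37, a small GTPase of secretory vesicles, differed from these, since the attached levels were alike in the 2 cell types: it rose from 2.20, 2.23 and 2.01 to 10.6, 9.87 and 8.61 CPM in control cells and was at 2.00 to 3.28 CPM in all GFI1-expressing libraries (-1.78 ± 0.25, adjusted p = 1.71e-05).

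The other leading genes differed in the form of the response. CPA4, a carboxypeptidase, fell in both cell types, by 3.83 log2 units in control cells and by 1.66 with GFI1 (interaction 2.17 ± 0.27, adjusted p = 4.94e-06), and the floating control libraries held only 9, 8 and 2 counts. TCN1, a vitamin B12 binding protein, and RET, a receptor tyrosine kinase, rose less in fold with GFI1 (-1.97 ± 0.22 and -1.77 ± 0.24, adjusted p = 8.47e-07 and 9.89e-06), from attached levels that were already higher with GFI1. LGALS9B, a galectin, had an interaction of -1.79 ± 0.21 (adjusted p = 1.24e-06). Its near-identical copy LGALS9C can share its reads, and the 2 summed gave -1.65 ± 0.20 (adjusted p = 2.83e-06), a fit chosen after seeing the data. AQP1, a water channel, was at 0.774 to 1.87 CPM in the 9 other libraries and at 6.45, 6.12 and 6.37 CPM in floating GFI1-expressing cells (1.52 ± 0.34, adjusted p = 0.00380). STK32B, a protein kinase, was already low in attached GFI1-expressing cells (4.51, 4.89 and 4.11 CPM against 46.9, 48.1 and 48.4 in attached controls) and fell further, to 1.05, 0.772 and 0.945 CPM (-1.64 ± 0.18, adjusted p = 5.98e-07).

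**Figure D2:**
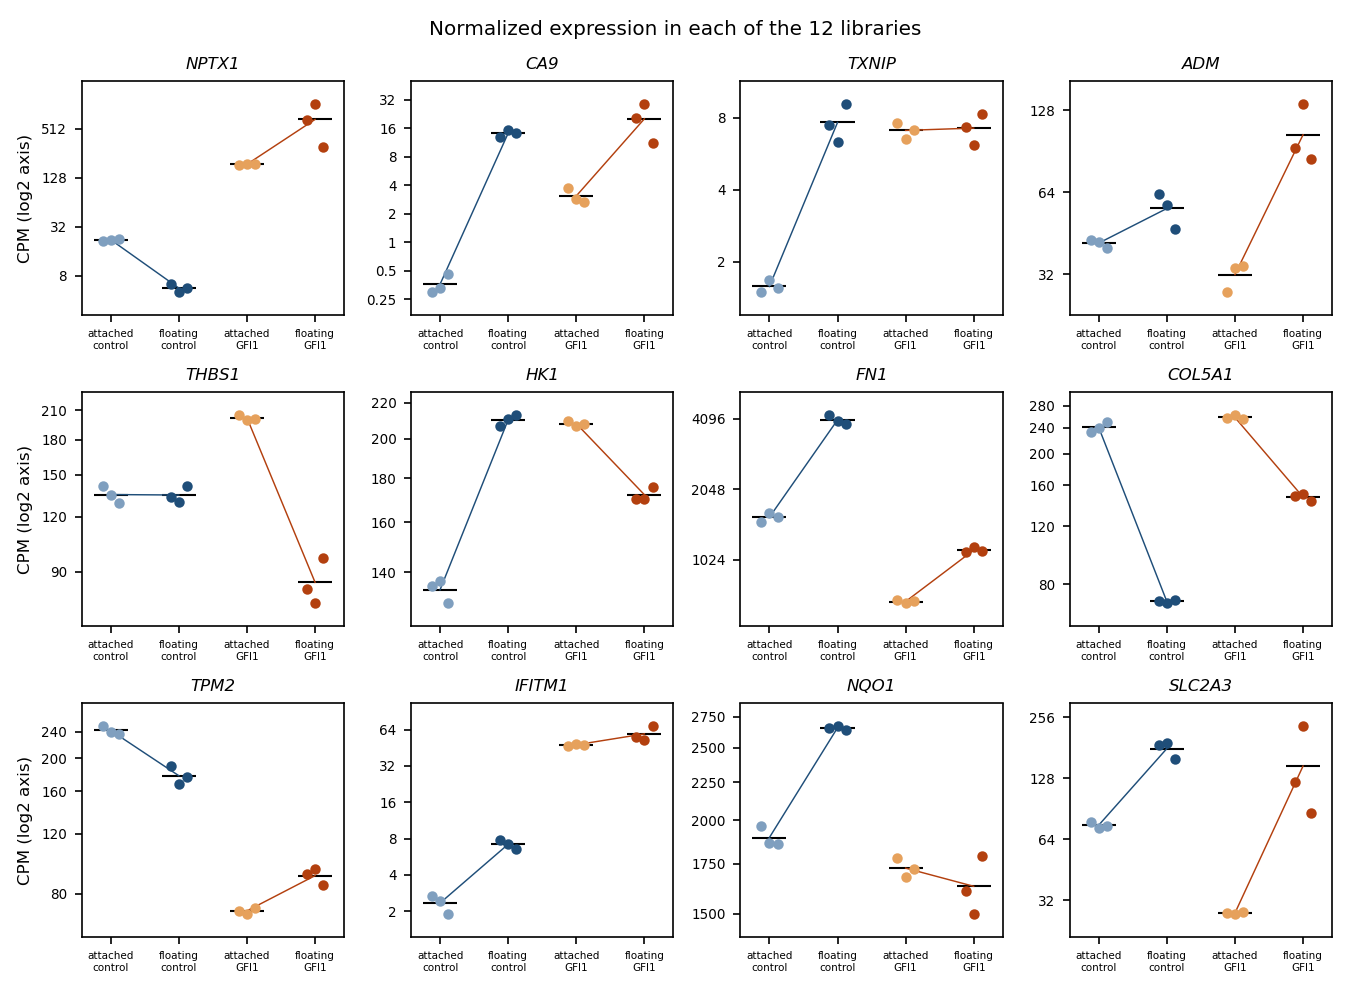
Expression of 12 genes in CPM on a log2 axis in each of the 12 libraries, with points for replicates 1, 2 and 3 from left to right, bars for group means and lines joining attached to floating means of the same cell type. Lines that are not parallel show the interaction: TXNIP rose in control cells and was at 6.12 to 8.31 CPM in all 6 GFI1-expressing libraries, and THBS1 fell with suspension in GFI1-expressing cells, to 76.3 to 96.9 CPM.

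Within the BCL2 family, 4 genes that promote cell death had a lower response to suspension with GFI1. Of 16 tested members, these 4 were lower, 1 was higher (2 without floating GFI1 replicate 3) and 11 were not called, with a median interaction of 0.01. The 4 lower ones were the BH3-only genes BMF, BBC3 (PUMA), BCL2L11 (BIM) and PMAIP1 (NOXA), whose proteins trigger mitochondrial apoptosis. All 4 were called with every single library left out. BMF, which links cytoskeletal detachment to apoptosis, was at 2.20, 1.36 and 1.32 CPM in attached and at 4.80, 3.67 and 4.70 CPM in floating control cells. With GFI1 it was at 21.3, 24.6 and 21.6 CPM attached and at 19.2, 19 and 18.2 CPM floating, so it was higher than in control cells in both states while suspension lowered it (-1.70 ± 0.21, adjusted p = 2.96e-06). BCL2L11 likewise rose in control cells, from 15.3 to 18.6 to a range of 19.7 to 23.5 CPM, and fell with GFI1, from 59.7 to 67.8 to a range of 49.6 to 54.4 CPM (-0.67 ± 0.11, adjusted p = 9.48e-05). BBC3 was at 19.5, 19.7 and 22.6 CPM in attached and at 44.9, 42.3 and 43.8 CPM in floating control cells, against 37.7, 34.2 and 32.9 and then 44.8, 46.8 and 38.9 CPM with GFI1 (-0.77 ± 0.10, adjusted p = 1.23e-05). In floating cells, the BBC3 ranges of the 2 cell types overlapped. PMAIP1 had suspension effects of 0.55 and 0.14 (-0.41 ± 0.10, adjusted p = 0.0113), and the higher member was BOK, a BAX-like effector (0.63 ± 0.16, adjusted p = 0.00907). Among 26 tested p53 targets, BBC3, TP53INP1, GDF15 and CCNG1 were lower and 0 were higher by edgeR, DESeq2 or limma-voom (7 lower and 1 higher at an unadjusted p under 0.05). The called share of these targets was 15.4%, against 10.8% of all genes tested. The count of 4 was 2 without attached control replicate 2, attached control replicate 3 or attached GFI1 replicate 1. In bulk RNA, fewer cells of a kind and less RNA per cell cannot be told apart.

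Focal adhesion and actin genes were mostly on the positive side among those called. Of 41 tested members, 16 were higher and 2 lower, against 4.76% and 6.01% of all genes tested, and the count of higher members was 15 or 16 when single libraries were left out. The median interaction was 0.13, against -0.004 over all genes tested. With suspension, 28 members fell and 4 rose in control cells, whereas 21 fell and 6 rose in GFI1-expressing cells. FLNA, the actin crosslinker filamin A, fell from 3956, 4247 and 4230.3 CPM to 2004, 1848 and 1912 CPM in control cells. With GFI1, it fell from 1854, 1858 and 1863 CPM to 1087, 1219 and 1137 CPM (interaction 0.41 ± 0.06, adjusted p = 8.01e-05). The attached GFI1-expressing cells were already at the level of the floating control cells. Actin and its partners behaved similarly, with ACTB at 0.30 ± 0.06, the myosin heavy chain MYH9 at 0.32 ± 0.06, the crosslinker ACTN1 at 0.46 ± 0.07, and the focal adhesion proteins VCL and ZYX at 0.44 ± 0.06 and 0.50 ± 0.11. TPM2, an actin-binding tropomyosin, switched sign: it fell from 249, 240 and 236 to 189.7, 168 and 176 CPM in control cells and rose from 71.4, 69.7 and 72.7 to 91.6, 94.9 and 84.9 CPM with GFI1 (0.78 ± 0.07, adjusted p = 2.54e-08). The docking protein BCAR1 (p130Cas) rose only by the test in GFI1-expressing cells, where suspension changed it by 0.42 against -0.08 in control cells (0.50 ± 0.07, adjusted p = 8.85e-06). The 2 lower members were PDLIM5 and TNS2, and the lower count was 4 by DESeq2 and limma-voom, 5 without floating GFI1 replicate 2 and 1 without attached GFI1 replicate 2, attached GFI1 replicate 3 or floating control replicate 1.

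Targets of YAP and TEAD, which are switched on by cell spreading and actin tension, fell with suspension in both cell types, 20 of 23 without GFI1 and 15 with it. The interaction was called higher for 8 and lower for 3 of them, with a median of 0.21. DESeq2 and limma-voom gave 4 higher and 3 lower. AMOTL2, a YAP-binding angiomotin, fell from 104, 101 and 105 to 24.0, 22.2 and 20.6 CPM in control cells and from 80.4, 81.8 and 78.8 to 26.5, 26 and 24.9 CPM with GFI1 (0.58 ± 0.08, adjusted p = 1.27e-05). AJUBA, a LIM protein that binds LATS kinases, had an interaction of 0.52 ± 0.08 (adjusted p = 0.000115). The count of 8 fell to 4 or 5 without any 1 of attached control replicates 2 and 3, attached GFI1 replicates 1 and 2, floating control replicates 1 and 2 and floating GFI1 replicate 1. SRF, which controls actin genes, switched from a suspension effect of -0.35 in control cells to 0.22 with GFI1 (0.56 ± 0.08, adjusted p = 1.08e-05).

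Of 24 tested integrins, the receptors that bind matrix, 6 were lower, 1 was higher and 17 were not called. The shares over all genes tested were 6.01% lower and 4.76% higher. ITGA10, a collagen-binding subunit, rose from 4.82, 5.38 and 4.65 to 15.6, 14.7 and 14.8 CPM in control cells and from 98.4, 94.7 and 99.1 to 136, 133 and 126 CPM with GFI1 (-1.16 ± 0.10, adjusted p = 1.51e-08). The rise in CPM was larger with GFI1, and the rise in fold was smaller. ITGB4, the laminin-binding subunit of hemidesmosomes, had suspension effects of 1.21 and 0.51 (-0.70 ± 0.14, adjusted p = 0.000909), and the leukocyte subunit ITGB2 had effects of 0.81 and 0.05 (-0.76 ± 0.10, adjusted p = 6.13e-06). The count of lower integrins was 3 without attached control replicate 3, attached GFI1 replicate 2 or floating control replicate 1. Of 10 tested adhesion genes that the study named as lowered by GFI1, FLNA and ACTN4 were higher and ITGA2 and ITGB1 were lower. The study chose these genes partly on these samples, together with data on GFI1 deletion in another cell line or on GFI1 binding. The calls of ITGA2 and ITGB1 (adjusted p = 0.0452 and 0.0450) were not held when single libraries were left out, with 0 or 1 of them left in 10 of the 12 fits.

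Matrix genes split in both directions, with 7 of 29 collagens and laminins higher and 8 lower. COL5A1, a fibrillar collagen chain, fell from 233, 239 and 249 to 71.1, 70.1 and 71.6 CPM in control cells. With GFI1 it fell less, from 257, 262 and 254 to 149, 150.3 and 143 CPM (0.95 ± 0.06, adjusted p = 8.41e-11). Its partner chain COL5A2 went the other way, at 258, 252 and 261 then 281, 285 and 272 CPM in control cells and at 24.4, 28.1 and 27.9 then 14.2, 14.1 and 17.4 CPM with GFI1 (-0.94 ± 0.09, adjusted p = 5.74e-08). The laminin chains LAMA3 and LAMB3 were both lower (-0.47 ± 0.07 and -0.77 ± 0.08). Fibronectin (FN1) rose from 1475, 1623 and 1561 to 4245, 4004 and 3889 CPM in control cells and from 687, 667 and 679 to 1105, 1157 and 1111 CPM with GFI1 (-0.65 ± 0.06, adjusted p = 6.69e-08). All floating GFI1-expressing libraries were below all attached control libraries for FN1.

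TGF-beta targets included 7 lower and 5 higher of 21, and these counts were 6 or 7 and 5 when single libraries were left out. THBS1, a matricellular protein that activates TGF-beta, did not differ by the test between attached and floating control cells, which were at 141, 135 and 129 and at 133, 130 and 141 CPM. In GFI1-expressing cells it fell from 205, 200 and 201 to 82.1, 76.3 and 96.9 CPM (-1.24 ± 0.08, adjusted p = 2.81e-10). GFI1 therefore had effects of opposite sign on THBS1 in the 2 states, 0.58 attached and -0.66 floating. The inhibitors of differentiation ID1, ID2 and ID3, which BMP signaling induces, were all lower (-0.44 ± 0.09, -1.20 ± 0.12 and -0.72 ± 0.08). PMEPA1, a feedback inhibitor of TGF-beta signaling, was higher (1.11 ± 0.15, adjusted p = 1.07e-05). In the floating GFI1-expressing libraries, PMEPA1 was at 425, 582 and 339.8 CPM, with replicate 2 highest and replicate 3 lowest.

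Of 22 tested output genes of the ERK pathway, 6 were lower, 1 was higher and 15 were not called, with a median of -0.20. With suspension, 13 members rose and 4 fell in control cells, and 7 rose and 6 fell in GFI1-expressing cells. The phosphatase DUSP6, a feedback inhibitor of ERK, rose from 6.73 to 8.04 to a range of 15.6 to 19.3 CPM in control cells and from 23.4 to 26.4 to a range of 29.9 to 38.8 CPM with GFI1 (-0.76 ± 0.15, adjusted p = 0.000810). DUSP4 was at 441, 443 and 445 CPM in attached and at 651, 654 and 618 CPM in floating control cells, and at 623 to 659 CPM in all GFI1-expressing libraries (-0.50 ± 0.06, adjusted p = 7.28e-07). The other lower members were SPRY4, ETV4, ETV5 and IER3, and DUSP5 was higher. DUSP5 was not called without attached control replicate 3, attached GFI1 replicate 1, floating control replicate 3 or floating GFI1 replicate 2. Leaving out floating GFI1 replicate 2 raised the lower count to 10. Among 26 immediate early genes, 6 were lower and 5 higher: JUNB (-0.70 ± 0.08) and FOS (-0.86 ± 0.21) were lower, and KLF6 (0.70 ± 0.09) and JUN (0.79 ± 0.21, adjusted p = 0.0147) were higher. By DESeq2 the higher count was 3. Without floating GFI1 replicate 3 it was 8, and it was 3 without attached control replicate 1, floating control replicate 2 or floating control replicate 3.

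**Figure D3:**
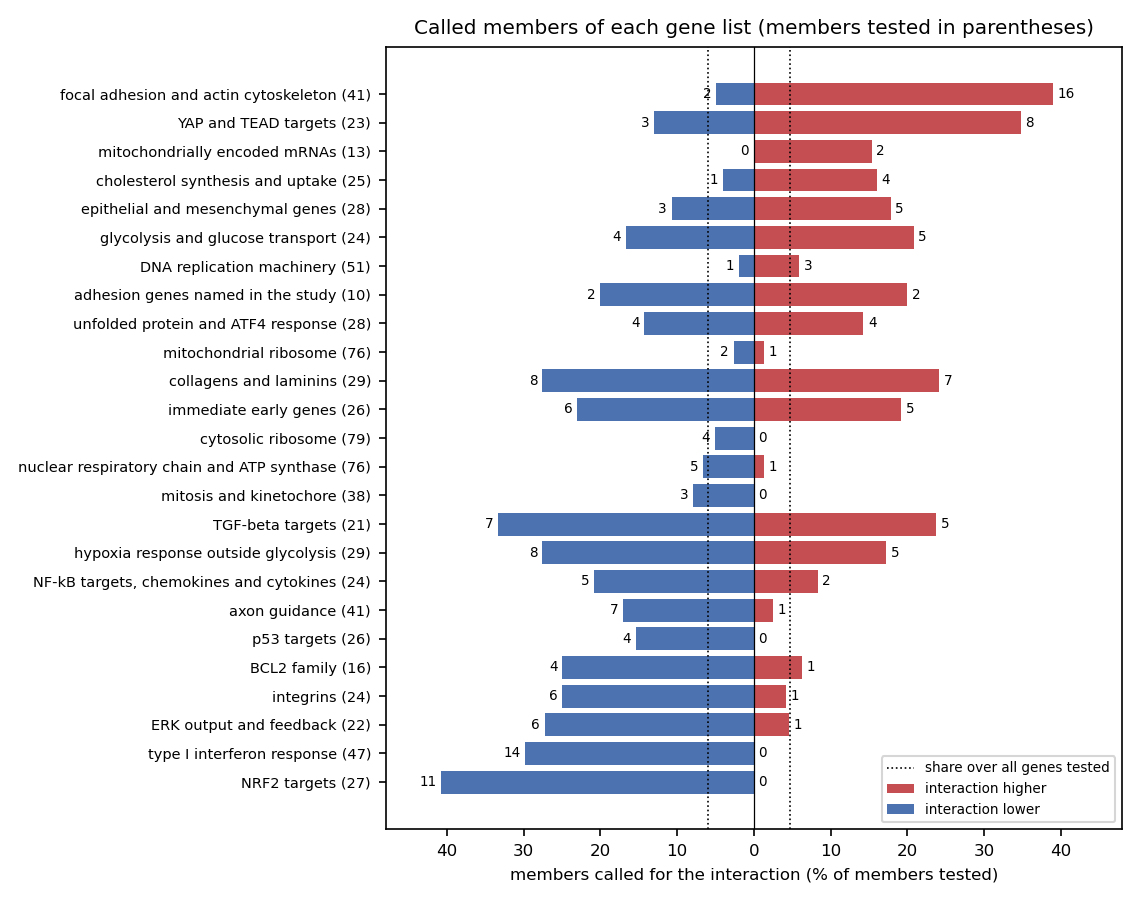
Called members of 25 gene lists as a percentage of the members tested, with positive interactions to the right, negative ones to the left, counts at the bar ends and dotted lines at the shares over all genes tested (4.76% and 6.01%). Focal adhesion and actin genes extend furthest to the right, with 16 of 41 members, and NRF2 targets furthest to the left, with 11 of 27.

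Hypoxia genes rose with suspension in both cell types but not to the same extent. All 29 tested members outside glycolysis rose in control cells and 28 rose in GFI1-expressing cells, with median effects of 1.06 and 1.19. Of these, 8 were lower and 5 higher for the interaction. As genes called as rising in both cell types, they were sub-additive and super-additive by definition. The higher count was 3 by DESeq2 and limma-voom, 2 with robust empirical Bayes and 8 with no low-count filter, and the lower count was 5 with robust empirical Bayes. CA9, the carbonic anhydrase that exports acid, was at 0.298, 0.326 and 0.459 CPM in attached controls (5, 6 and 8 counts) and at 12.9, 15.4 and 14.4 CPM in floating controls. With GFI1 it was at 3.77, 2.86 and 2.65 CPM attached and at 20.5, 28.9 and 11.2 CPM floating (-2.57 ± 0.55, adjusted p = 0.00248). In fold, attached cells differed more between the 2 cell types than floating cells did, and in CPM the order was opposite. ADM, the vasodilator adrenomedullin, was at 42.9, 42.2 and 39.8 then 62.9, 57.6 and 46.9 CPM in control cells and at 27.5, 33.8 and 34.4 then 92.8, 135 and 84.6 CPM with GFI1 (1.28 ± 0.18, adjusted p = 1.71e-05). Every floating GFI1-expressing library was above every other library for ADM.

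Promoter sequences were examined because hypoxia-inducible factors bind elements with the core ACGTG, and members of both directions are shown to compare them. Of the called hypoxia and glycolysis genes with a promoter in RefSeq (GRCh38.p14, 250 bases before to 50 after the start), the core on either strand was in 8 of 12 lower and 4 of 8 higher genes. Windows of 29 bases upstream of the start are printed in the direction of transcription with the core in capitals, for 2 lower genes (CA9 and ALDOC) and 2 higher genes (GPI and LDHA, of which 1 of several cores is shown):
CA9, chr9:35673898-35673926, plus strand: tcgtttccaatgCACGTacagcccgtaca
ALDOC, chr17:28576907-28576935, minus strand: ccccggaggagtCACGTagctctgcgaca
GPI, chr19:34364818-34364846, plus strand: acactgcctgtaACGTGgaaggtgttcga
LDHA, chr11:18394465-18394493, plus strand: agcccgactcacACGTGggttcccgcacg
Genes of opposite interaction held the same letters, and a match is no evidence of binding. Over all called genes, the share of promoters with ACGTG was 21.8% for higher and 23.7% for lower genes, against 26.3% of the 12045 tested genes with a promoter and 21.6% of all 27305 promoters listed. Shares for TGANTCA (AP-1) were 5.22% and 6.14% against 4.86% of tested genes, those for TGACGTCA (CRE) were 4.03% and 2.09% against 3.19%, and those for the interferon stimulated response element were 2.09% and 4.05% against 2.83%. CCAAT was in 34.6% and 38.2% against 36.0%, and the GFI1-like TAAATCA in 1.19% and 0.983% against 1.42%. Both strands were searched and no motif contains another.

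Of 24 tested glycolysis genes, 5 were higher and 4 lower by edgeR. DESeq2 and edgeR with robust empirical Bayes each gave 1 higher and 4 lower, and limma-voom gave 5 of each. Of the 9 called, 3 were sub-additive, 3 super-additive, 1 masked, 1 gained and 1 of opposite sign. HK1, the constitutive hexokinase, was at 135, 137 and 129 CPM in attached and at 207, 211 and 213 CPM in floating control cells. With GFI1 it was at 209.6, 207 and 208 CPM attached and fell to 170.2, 170.5 and 176 CPM floating (-0.93 ± 0.06, adjusted p = 7.16e-11). The replicates of HK1 were tight in all 4 groups, and the GFI1 effect was positive in attached and negative in floating cells. ALDOC, a fructose-bisphosphate aldolase, rose less in fold with GFI1 (3.68 in control, 2.22 with GFI1, interaction -1.46 ± 0.25, adjusted p = 0.000241), as did the lactate exporter SLC16A3 (-0.69 ± 0.11, adjusted p = 6.28e-05). The glucose transporter SLC2A3 rose more in fold, from 27.7, 27.3 and 27.9 to 123, 231 and 86.2 CPM with GFI1 against 78.1, 72.2 and 74.6 to 187, 189.8 and 159.8 CPM in control cells (1.15 ± 0.28, adjusted p = 0.00737). GPI, which isomerizes glucose 6-phosphate, had effects of 0.49 and 1.11 (0.62 ± 0.14, adjusted p = 0.00415), and SLCO4A1, an organic anion transporter outside these lists, of 0.65 and 2.44 (1.79 ± 0.29, adjusted p = 0.000137). In floating GFI1-expressing replicates 1, 2 and 3, GPI was at 2010.3, 2618 and 1532 CPM and SLCO4A1 at 46.9, 71.8 and 27.4 CPM. For both genes, replicate 3 was below all floating control libraries (1785 to 1892 and 28.9 to 30.8 CPM).

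These 2 lists depended on the floating GFI1-expressing library. Without replicate 3, 10 hypoxia genes were higher and 7 lower, and without replicate 2, 5 were higher and 13 lower. The higher hypoxia count was 2 or 3 without 7 other libraries (the 3 attached control, the 3 floating control and attached GFI1 replicate 3). In glycolysis, the higher and lower counts were 7 and 3 without floating GFI1 replicate 3, 4 and 6 without floating GFI1 replicate 2, and 3 and 3 without floating control replicate 2. Genes such as NDRG1 (891, 1708 and 432 CPM in floating GFI1-expressing cells, interaction -0.15 ± 0.37, adjusted p = 0.860) and HK2 (7.94, 16.5 and 4.97 CPM, interaction 1.31 ± 0.56, adjusted p = 0.151) spread as widely and were not called.

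**Figure D4:**
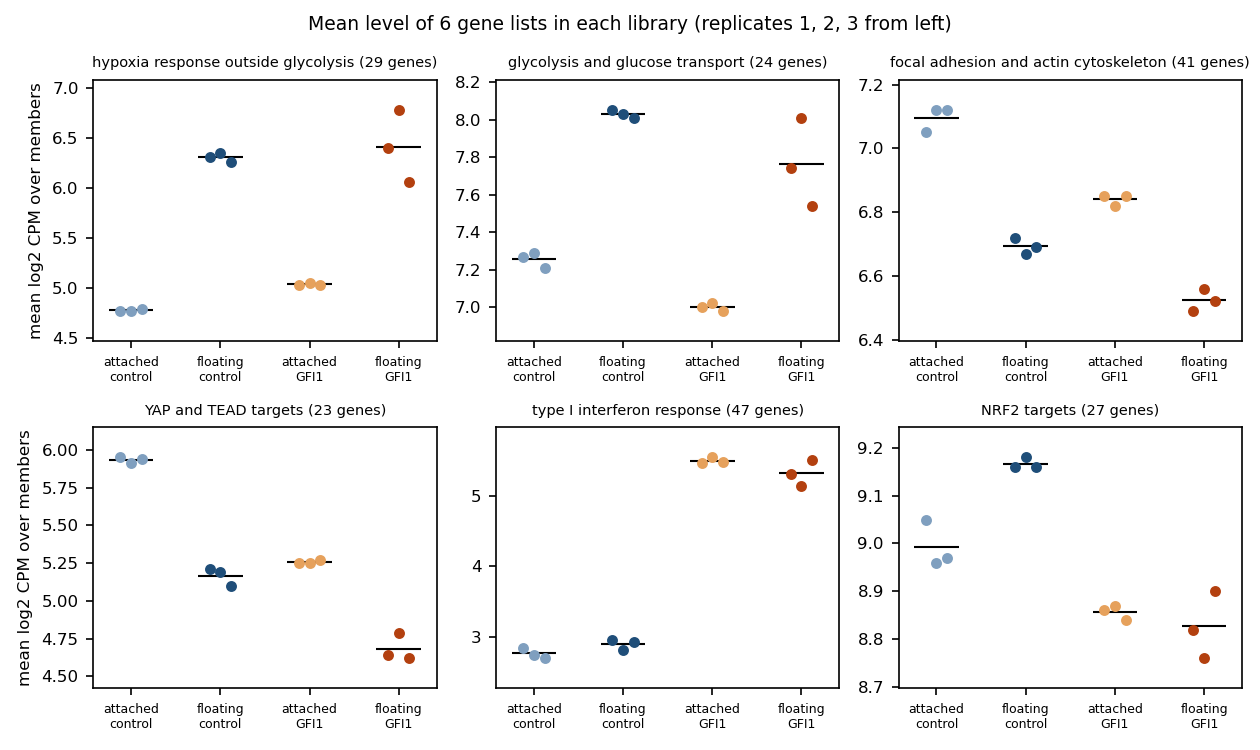
Mean log2 CPM over the tested members of 6 gene lists in each library, with replicates 1, 2 and 3 from left to right and bars for group means. In floating GFI1-expressing cells the hypoxia list was at 6.40, 6.78 and 6.06, a wider spread than in the other groups, while focal adhesion and actin genes were at 6.49, 6.56 and 6.52.

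Interferon-stimulated genes, which encode antiviral proteins, were called for the interaction in 1 direction. Of 47 tested, 14 were lower and 0 higher by edgeR, with a median of -0.31. DESeq2 gave 10 lower and limma-voom 8, with 0 higher by either, and 24 were lower and 2 higher at an unadjusted p under 0.05. With suspension, 17 members rose and 5 fell in control cells, whereas 1 rose and 17 fell in GFI1-expressing cells. The list was much higher with GFI1 in both states (median GFI1 effect 2.47 attached and 2.33 floating). IFITM1, which blocks viral entry, rose from 2.68, 2.44 and 1.89 to 7.76, 7.22 and 6.57 CPM in control cells and from 47.0, 49.0 and 47.9 to 55.9, 52.8 and 68.6 CPM with GFI1 (-1.31 ± 0.18, adjusted p = 1.85e-05). OAS1, which senses double-stranded RNA, rose in control cells (42.7 to 46.6, then 54.4 to 59.4 CPM) and fell with GFI1, from 65.9, 69.3 and 70.2 to 56.7, 43.8 and 69.4 CPM (-0.61 ± 0.13, adjusted p = 0.00291). Attached and floating libraries overlapped for OAS1 in GFI1-expressing cells. In the floating GFI1-expressing libraries the mean of the list was lowest in replicate 2 and highest in replicate 3 (5.30, 5.14 and 5.50 log2 CPM in replicates 1, 2 and 3). Of the 14 genes, 7 were called in every fit that left out a library. The count was 8 or 9 without attached control replicate 3, attached GFI1 replicate 2, floating control replicates 1 or 3 or floating GFI1 replicate 1, and 21 without floating GFI1 replicate 3.

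NRF2 targets, genes of antioxidant defence that are constitutively high in A549, had 11 of 27 members lower and 0 higher by edgeR, with a median of -0.19. DESeq2 and limma-voom gave 12 lower and 0 higher, and 16 were lower and 0 higher at an unadjusted p under 0.05. NQO1, a quinone reductase, rose from 1968, 1865 and 1859 to 2659.9, 2674 and 2645 CPM in control cells and was at 1499 to 1791 CPM in all GFI1-expressing libraries (-0.57 ± 0.07, adjusted p = 3.67e-06). The drug transporter ABCC2 was masked as well (-0.58 ± 0.08, adjusted p = 1.18e-05). HMOX1, which degrades heme, and GCLM, a subunit of the enzyme that limits glutathione synthesis, fell by the test only with GFI1, with suspension effects of -0.53 and -0.33 against -0.02 and -0.02 in control cells. Thioredoxin reductase TXNRD1 fell in both cell types and by more with GFI1 (-0.45 against -0.13). The count of 11 was 7 without attached control replicate 3, attached GFI1 replicate 2 or floating control replicate 2, and 16 without floating GFI1 replicate 3. In floating GFI1-expressing cells the mean of this list was also highest in replicate 3, at 8.82, 8.76 and 8.90 log2 CPM in replicates 1, 2 and 3.

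Among 28 epithelial and mesenchymal genes, 5 were higher and 3 lower. VIM, the mesenchymal filament vimentin, was at 449, 422 and 408 then 449, 442 and 426 CPM in control cells, and rose with GFI1 from 52.7, 46.1 and 51.3 to 91.2, 128 and 74.3 CPM (0.93 ± 0.15, adjusted p = 0.000108). KRT8 fell in both cell types and by less with GFI1 (0.38 ± 0.07, adjusted p = 0.000611), and the junction protein JUP was masked, with a rise in control cells (-0.45 ± 0.06, adjusted p = 2.48e-05). The higher count was 2 without attached GFI1 replicate 1 and 3 without floating control replicate 3. Of the 24 NF-kB targets, chemokines and cytokines, 5 were lower, led by the neutrophil chemokine CXCL5 (-0.79 ± 0.07, adjusted p = 3.70e-08), and 2 were higher, IL11 and NFKB2. NFKB2 was not called in 8 of the 12 fits that left out a library, and the higher count was 1 by DESeq2.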

How the data were processed

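The authors deposited raw read counts per gene for 12 RNA-Seq libraries. Per the study's methods, these were made from mRNA selected out of total RNA with poly-T beads. The study's methods name Hisat2 and featureCounts, whereas the submitters' processing notes name Bowtie2, HTSeq and the build hg38, so the aligner and counter are uncertain, and reads of near-identical or overlapping genes may have been divided differently. Genes were kept by filterByExpr (at least 10 counts), scaled by TMM and fitted in edgeR 4.0.16 (R 4.3.3) as 4 group means over all 12 libraries. Suspension, GFI1 and interaction contrasts were tested by quasi-likelihood with Benjamini-Hochberg adjustment over all tested genes, and every adjusted p is from edgeR unless another tool is named. Standard errors are on the log2 scale. They were derived from the test, as the absolute log2 estimate divided by the square root of the quasi-likelihood F statistic. Total counts set the precision, and genes with few counts have larger errors. The script was tested on simulated data.

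Named genes were GFI1, RASGRP2, the 8 highest and 8 lowest interactions and the 4 largest of each response group (protein-coding, mean log2 CPM of at least 1, more than 3 counts in a library of each group, called with each library left out), and up to 2 called members of each list in each direction. Response groups, lists and members were chosen with earlier results of these data known. Alternatives were DESeq2 1.42.0, limma-voom 3.58.1, other scalings and filters, a replicate block and leaving out libraries. Promoter sequences are from RefSeq and matched 12045 tested genes (67.6%).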

Additional observations from a re-analysis of the deposited data

Results flagged for a closer look

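The suspension effect differed between control and GFI1-expressing cells for 1919 genes by the interaction test of edgeR. In some genes, all 3 floating libraries lay on opposite sides of their attached libraries in the 2 cell types. Among the genes named for the highest or lowest interactions, these were NPTX1 (interaction 3.80), DMBX1 (1.83), NKD2 (1.67) and BMF (-1.70). Genes named as list members, with smaller interactions, showed the same separation, including HK1, TPM2, SRF, KLF6, PMEPA1, ID2, NRP1 and COL5A2. Groups of 3 libraries are too small to test for a single outlying library.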

How the results depend on the processing

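Other tools, scalings and filters called 1600 (DESeq2) to 2029 (robust empirical Bayes) genes. Of the DESeq2 calls, 1553 were shared with the 1919 reported, all with the same sign. With a change of at least 2-fold required as well, 241 genes were called, 95 higher and 146 lower, of which 119 were masked, 39 sub-additive, 13 super-additive, 35 gained, 29 of opposite sign and 6 with neither effect called. Response groups set by size alone, which include no gained group, held 576 masked genes, 519 sub-additive, 226 super-additive and 598 of opposite sign. Genes with neither effect called numbered 38 by DESeq2 and 42 with no low-count filter. With single libraries left out, 1481 to 2090 genes were called (653 to 970 higher, 814 to 1225 lower), with 628 to 884 masked, 337 to 519 sub-additive, 84 to 196 super-additive (196 without floating GFI1 replicate 3), 236 to 389 gained, 110 to 190 of opposite sign, and 12 (without attached GFI1 replicate 3) to 40 (without floating GFI1 replicate 3) with neither called. RASGRP2 ran from -0.56 to 0.11, the latter without floating control replicate 1. The causes were not tested. A replicate block called 1904 genes, of which 1841 were shared. Deviations of same-numbered libraries from their group means correlated at -0.067 to 0.0512 over 18 pairs, so no shared deviation was visible. Whether same-numbered libraries were prepared together is not stated.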

Other observations

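Called shares of DNA replication genes (7.84%) and of mitosis and kinetochore genes (7.89%) were near that of all genes (10.8%). Of 51 tested replication genes, 3 were higher and 1 lower, and the higher count ran from 0 (without attached GFI1 replicate 3 or floating control replicate 1) to 4 (without attached GFI1 replicate 1). Of 38 mitosis genes, 3 were lower. The 79 cytosolic ribosome genes had 4 lower, and this count ran from 0 to 18 as single libraries were left out (18 without floating GFI1 replicate 2). Of 76 nuclear respiratory chain genes, 5 were lower and 1 higher, with 10 lower without attached control replicate 1 and 1 lower without attached GFI1 replicate 1 or floating control replicate 2. Mitochondrial ribosome genes had 1 higher and 2 lower of 76, and mitochondrially encoded mRNAs 2 higher of 13. The 6 replication genes that the study chose partly on these samples, together with GFI1 binding, had 1 lower.

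Axon guidance genes, which encode semaphorins, ephrins and their receptors, had 7 lower and 1 higher of 41. Cholesterol genes had 4 higher and 1 lower of 25, and genes of the unfolded protein and ATF4 response had 4 in each direction of 28. The latter had 8 higher without floating GFI1 replicate 3 and 7 with no low-count filter, and 2 lower without attached control replicate 3, attached GFI1 replicate 2 or floating control replicates 1 or 2. Among near-identical copies, CCZ1 and CCZ1B had interactions of -1.39 ± 0.25 and -0.07 ± 0.12 apart and of -0.92 ± 0.16 summed (edgeR, adjusted p = 0.000307), a sum chosen after seeing the data. CBLN2, outside the naming rule and chosen after its value was seen, had an interaction of 4.41.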
